A study of Mus musculus with 12 samples.

Results

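The clustered protocadherin genes were described in mouse neural progenitor cells (mNPCs), as every gene whose symbol begins with Pcdha, Pcdhb or Pcdhg and that had more than 10 counts over all libraries. The rule gave 23 of the 18911 genes in the deposited table, namely 21 genes of the beta cluster (Pcdhb2 to Pcdhb22), 1 row of the alpha cluster (Pcdha11) and 1 row of the gamma cluster (Pcdhgc4). Pcdhb1 is also listed, but its total was exactly 10 counts and it was left out. All 23 members passed the filter on low counts and were tested. The mNPCs had been cultured from the hippocampus of newborn C57BL/6J pups, and their poly(A) RNA was sequenced in 12 libraries, with 3 libraries for each of 4 genotypes. Kmt2a+/+ cells are wild type. Kmt2a+/LSL cells carry a loxP-stop-loxP cassette in the first intron of 1 Kmt2a allele, which cuts the message of that allele short. Nes-Cre+/- Kmt2a+/+ cells are wild type at Kmt2a and carry the nestin-Cre transgene, a recombinase driven in neural cells. Nes-Cre+/- Kmt2a+/LSL cells carry both, so that the cassette is cut out and the allele restored. The study's methods call the libraries of a genotype biological replicates, but the labels do not say whether they came from separate animals or litters, so p-values measure only the spread between these libraries.

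The clustered protocadherins are cadherin-like adhesion proteins that stand in a row of 3 gene clusters on 1 chromosome. Each variable exon of the alpha and gamma clusters has its own promoter and is spliced to constant exons shared by the whole cluster, whereas beta genes are mostly single-exon genes with no shared constant exon. In neurons, each cell switches on a small, partly random set of these promoters, helped by CTCF, cohesin and DNA methylation, and proteins of the same kind bind each other across cells, which lets the branches of 1 neuron recognise and avoid each other. The C-type genes, Pcdhac1, Pcdhac2, Pcdhgc3, Pcdhgc4 and Pcdhgc5, are known to be expressed less randomly than the others. Of these 5, Pcdhgc4 has a row, and the other 4 were not analysed here. KMT2A is a histone H3 lysine methyltransferase that acts at promoters.

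In the GRCm38 annotation (GENCODE vM21), the alpha cluster spans chr18:36930184-37187661, the beta cluster chr18:37264938-37524479 and the gamma cluster chr18:37661793-37841873, all on the plus strand. The annotation holds 58 identifiers of the 3 clusters, of which 24 have a row in the table. The other 34 are alpha and gamma identifiers and were not analysed here. The highest identifier number in the table is 99310, and all 34 have higher numbers, among 17216 identifiers of 6 or more digits in the annotation, none of which has a row. The gene models behind the table may therefore be older than this annotation. Whether the rows named Pcdha11 and Pcdhgc4 hold reads of other alpha and gamma genes cannot be told from the table, so each is read below as the row of that name and not as 1 promoter.

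Sequence shared between transcripts can limit how well reads are assigned, which was not measured here. Of the 31-base words in the transcript of Pcdha11, 63.0% also occur in the transcripts of other genes, and 3 of its 4 exons share a boundary with other alpha identifiers. For Pcdhgc4 the share was 37.4%, with 3 of 5 exons sharing a boundary. Within the rows of the table, however, the share was 0% for Pcdha11 and 0.179% for Pcdhgc4. Among the beta members the share with any other gene was lower, from 5.19% in Pcdhb14 to 22.5% in Pcdhb12, with a median of 12.1%, nearly all of it with other beta genes. Reads from such stretches can be divided among beta genes by the authors' estimation, which leaves the sum over the cluster as it is. The beta transcripts were also rich in A and T. Their GC content ran from 39.1% in Pcdhb14 to 49.0% in Pcdhb12, with a median of 45.6%, against a median of 49.7% over all genes of the table with more than 10 counts and 54.3% in Pcdhgc4. Of the 21 beta genes, 17 have a single coding exon.

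Library totals lay between 18280008 and 28596919 estimated counts, and 17076 genes were fitted. Levels are given as CPM, the count of a gene scaled to a common library size of 1e6 after scaling by the trimmed mean of M-values (TMM). Kmt2a itself, the targeted gene, was at 281 to 300 CPM in the Kmt2a+/+ libraries and 166 to 167 CPM for Kmt2a+/LSL. With nestin-Cre it was at 283 to 310 CPM for Nes-Cre+/- Kmt2a+/+ and 259 to 284 CPM for Nes-Cre+/- Kmt2a+/LSL. Low values thus bore out the label of the genotype whose stopped allele was not restored. Ranges of the remaining genotypes overlapped, so the level of Kmt2a cannot check their nestin-Cre labels or tell restored from wild-type cells. Kmt2a+/+ replicate 1 stood apart from the other 11 libraries. Its log2 values sank by 1.32 for every 10 points of GC content relative to the mean of all libraries, while the other slopes lay between -0.31 in Nes-Cre+/- Kmt2a+/LSL replicate 1 and 0.53 in Kmt2a+/+ replicate 3. Several values that use this library are therefore also given without it, or with an offset that takes the dependence on GC content out of each library (GC offset). The cultures expressed progenitor genes, with Nes between 316 and 758 and Sox2 between 226 and 387 CPM in every library. The 11 neuronal markers summed to 1024 to 1924 CPM, most of it Map2. Tubb3, Dcx, Snap25 and Gad1 lay between 3.03 and 28.2 CPM, and Rbfox3, Syt1 and Gad2 between 0.476 and 2.97 CPM. Stmn2, Slc17a7 and Neurod1 were at 0.502 CPM or below everywhere. Astrocyte markers summed to 767 to 3196 CPM. Oligodendrocyte-lineage markers, led by Olig1 and Olig2, summed to 1199 to 5560 CPM, and the 5 microglial markers to at most 2.91 CPM.

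Every beta member had counts in all 12 libraries. The levels in this paragraph are CPM divided by the length of the longest transcript in kb, and on that scale the genes differed widely. The Pcdhgc4 row had a mean of 478 CPM per kb and was exceeded by 76 of 16926 genes with a known length (0.449%). That row may hold reads of other gamma genes, so its level is not known to be that of Pcdhgc4 alone. Pcdha11 had 5.34 CPM per kb, close to the median gene at 4.58. The 21 beta members had a median of 1.07 CPM per kb. Highest among them were Pcdhb20 (5.14), Pcdhb18 (4.56), Pcdhb19 (3.59) and Pcdhb17 (2.48 CPM per kb), which stand next to each other in the beta cluster, and lowest was Pcdhb13 (0.352 CPM per kb, a mean of 31.1 counts per library).

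**Figure D1:**
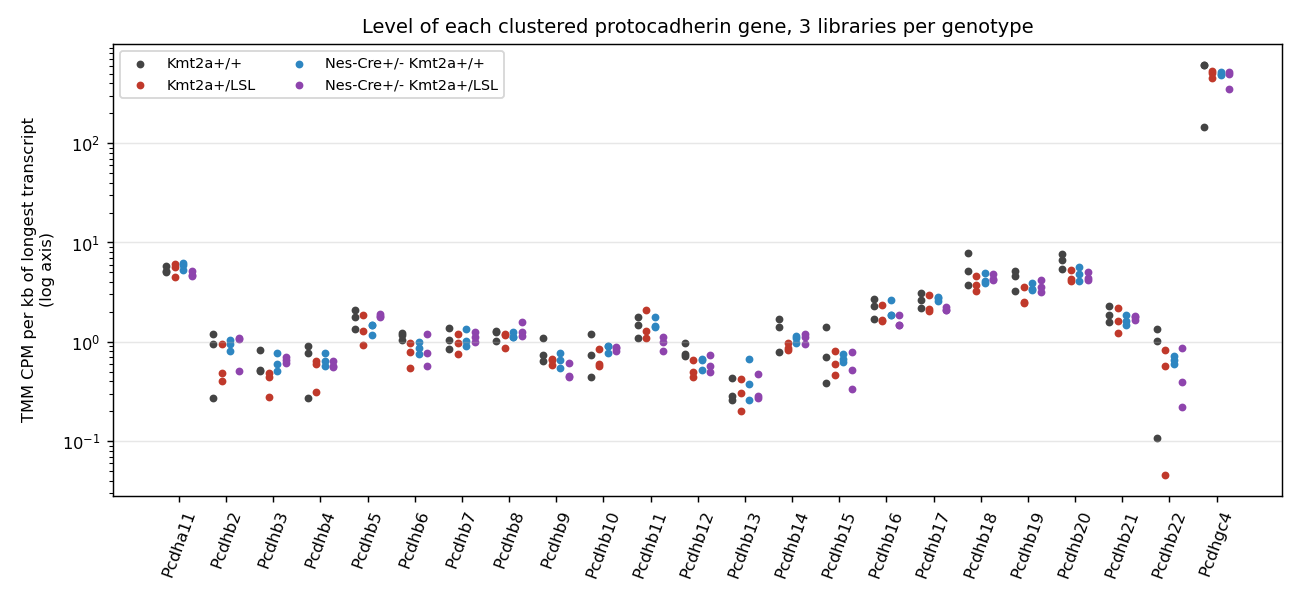
Level of each member in TMM CPM per kb of the longest transcript (log axis) for the 4 genotypes, with 1 point per library and genes in their order along the chromosome. Pcdhgc4 lies far above the others, Pcdhb17 to Pcdhb20 form the high end of the beta cluster, and the points of Pcdhb22 spread most.

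The order of the beta genes was nearly the same in every library. Over the 66 pairs of libraries, Spearman's rho of the 21 beta levels had a median of 0.92 and a minimum of 0.76, as a description across genes that share sequence and libraries. Pcdhb18, Pcdhb19 and Pcdhb20 were the leading 3 genes in all 12 libraries by CPM, and together they held 41.7% to 55.2% of the summed beta CPM, a share not divided by length. The highest of these shares were in Kmt2a+/+ replicate 1 (55.2%) and Nes-Cre+/- Kmt2a+/LSL replicate 1 (49.0%), the libraries with the most negative GC slopes. In the other 10 libraries the share was at most 45.4%.

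Summed over the 21 genes, the beta cluster had 188, 190 and 146 CPM in Kmt2a+/+, a mean of 175 ± 24.8 (SD, n = 3). It had 113, 160 and 119 CPM in Kmt2a+/LSL, a mean of 131 ± 25.5. The 2 higher wild-type libraries stood above all 3 Kmt2a+/LSL libraries. However, the ranges overlapped, since the lowest wild-type library lay below the highest Kmt2a+/LSL library. After the GC offset the sums were 135, 209 and 180 CPM in Kmt2a+/+ and 109, 155 and 127 CPM in Kmt2a+/LSL. Replicate 1 was then the lowest wild-type library, and the ranges still overlapped. With nestin-Cre the sums before the offset were 140, 164 and 144 CPM in Nes-Cre+/- Kmt2a+/+ (mean 149 ± 13.0) and 147, 138 and 140 CPM in Nes-Cre+/- Kmt2a+/LSL (mean 142 ± 4.67). The log2 ratio of the means was -0.42 for Kmt2a+/LSL against Kmt2a+/+, 0.12 for Nes-Cre+/- Kmt2a+/LSL against Kmt2a+/LSL, -0.08 for Nes-Cre+/- Kmt2a+/LSL against Nes-Cre+/- Kmt2a+/+ and -0.23 for Nes-Cre+/- Kmt2a+/+ against Kmt2a+/+. Leaving out single libraries moved the second of these ratios to between 0.022 (without Kmt2a+/LSL replicate 1) and 0.29 (without Kmt2a+/LSL replicate 2), with 0.058 without Kmt2a+/LSL replicate 3, and the third to between -0.12 and -0.0026, the latter without Nes-Cre+/- Kmt2a+/+ replicate 2. These sums are descriptions and were not tested. In bulk RNA, fewer cells that express a gene and less RNA per cell cannot be told apart.

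**Figure D2:**
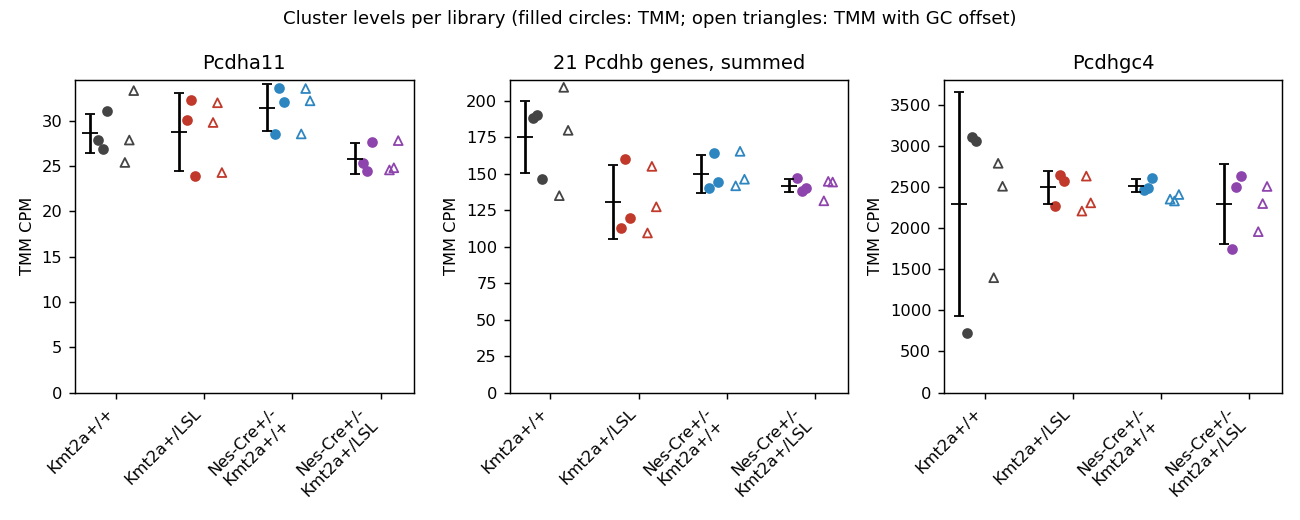
Level per library of Pcdha11, of the 21 beta genes summed and of Pcdhgc4 in TMM CPM, by genotype, as filled circles, with the mean ± SD of 3 libraries as black bars and the same libraries after the GC offset as open triangles. The beta sum was lowest in Kmt2a+/LSL, with a mean of 131 CPM, and 1 wild-type library of Pcdhgc4 lay at 727 CPM.

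Kmt2a+/LSL and Kmt2a+/+ were compared to ask which genes differ when 1 Kmt2a allele is stopped. No clustered protocadherin passed an adjusted p under 0.05 in edgeR's quasi-likelihood test, nor did any of the 17076 genes (0% called, 306 genes at an unadjusted p under 0.05, with 7 genes called by DESeq2 and 2 by limma-voom). Kmt2a itself, whose libraries did not overlap, was thus not called either. Without Kmt2a+/+ replicate 1, 2 genes were called and 1521 had an unadjusted p under 0.05, but no beta gene was called. With all libraries, the fitted log2 fold change was below 0 for 20 of the 21 beta genes, against 49.8% of all genes. This count and the like counts below describe genes that share sequence and libraries, and are not independent observations. The median of the beta genes was -0.37, from -0.78 in Pcdhb22 to 0.02 in Pcdhb11, while the median of all genes was 0.0011. The alpha and gamma rows had log2 fold changes of 0.0069 ± 0.17 (SE) in Pcdha11 and 0.12 ± 0.41 in Pcdhgc4. An unadjusted p under 0.05 with a lower level was found for 2 beta genes, Pcdhb19 and Pcdhb20, against 1.12% of all genes.

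Pcdhb19 had 37.2, 32.8 and 23.3 CPM in Kmt2a+/+ and 17.7, 25.1 and 18.1 CPM in Kmt2a+/LSL. A single wild-type library fell inside the Kmt2a+/LSL range. Its log2 fold change was -0.62 ± 0.22 (SE), with an edgeR adjusted p = 1. Pcdhb20 had 27.1, 23.5 and 19.3 CPM in Kmt2a+/+ and 14.7, 19.0 and 15.4 CPM in Kmt2a+/LSL, so every Kmt2a+/LSL library was below every wild-type library. Its log2 fold change was -0.51 ± 0.20, with an edgeR adjusted p = 1. Pcdhb18 came next, with 39.7, 26.3 and 18.9 CPM in Kmt2a+/+ and 18.7, 23.2 and 16.3 CPM in Kmt2a+/LSL (-0.54 ± 0.26, edgeR adjusted p = 1). Its value rested in part on Kmt2a+/+ replicate 1, the highest library, and was -0.22 without it. Over fits that left out 1 library each, the log2 fold change lay between -0.82 and -0.46 for Pcdhb19 and between -0.65 and -0.39 for Pcdhb20. The 3 genes lie side by side, and all 3 have a GC content below 45.6%, the median of the cluster.

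The libraries of both genotypes did not overlap for 4 of the 21 beta genes, all lower in Kmt2a+/LSL, namely Pcdhb3, Pcdhb6, Pcdhb12 and Pcdhb20, against 1.76% of all genes. For such a gene the two-sided exact permutation p is 0.1, the smallest that 3 against 3 libraries allow. Pcdhb6 had 4.34, 4.53 and 3.84 CPM in Kmt2a+/+ and 2.02, 3.66 and 2.93 CPM in Kmt2a+/LSL. Pcdhb12 ran from 2.20 to 2.97 CPM and from 1.34 to 1.99 CPM. The gaps between the groups were narrow beside the spread within them. After the GC offset, 4 genes again did not overlap, against 3.92% of all genes, but they were Pcdhb12, Pcdhb14, Pcdhb18 and Pcdhb20.

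The count of beta genes below 0 lay between 16 and 21 when single libraries were left out. Without Kmt2a+/+ replicate 1, the library that stood apart, it was 21 of 21 with a median of -0.39, and with the GC offset it was 21 with a median of -0.40. It was 16, with a median of -0.21, without Kmt2a+/+ replicate 2, in which the beta sum was highest. The number of genes at an unadjusted p under 0.05 was less steady. It was 0 without Kmt2a+/LSL replicate 1 or replicate 3, 1 without Kmt2a+/+ replicate 2, 4 without Kmt2a+/+ replicate 3 and 5 without Kmt2a+/LSL replicate 2, where the median was -0.63. It was 5 with the GC offset and 7 with limma-voom and sample weights. Over all genes, those lower at an unadjusted p under 0.05 numbered 192 in the main fit. They numbered 461 with the GC offset and 448 with limma-voom, so the count rose over all genes too. It was 523 without Kmt2a+/+ replicate 3 and 147 without Kmt2a+/LSL replicate 2.

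**Figure D3:**
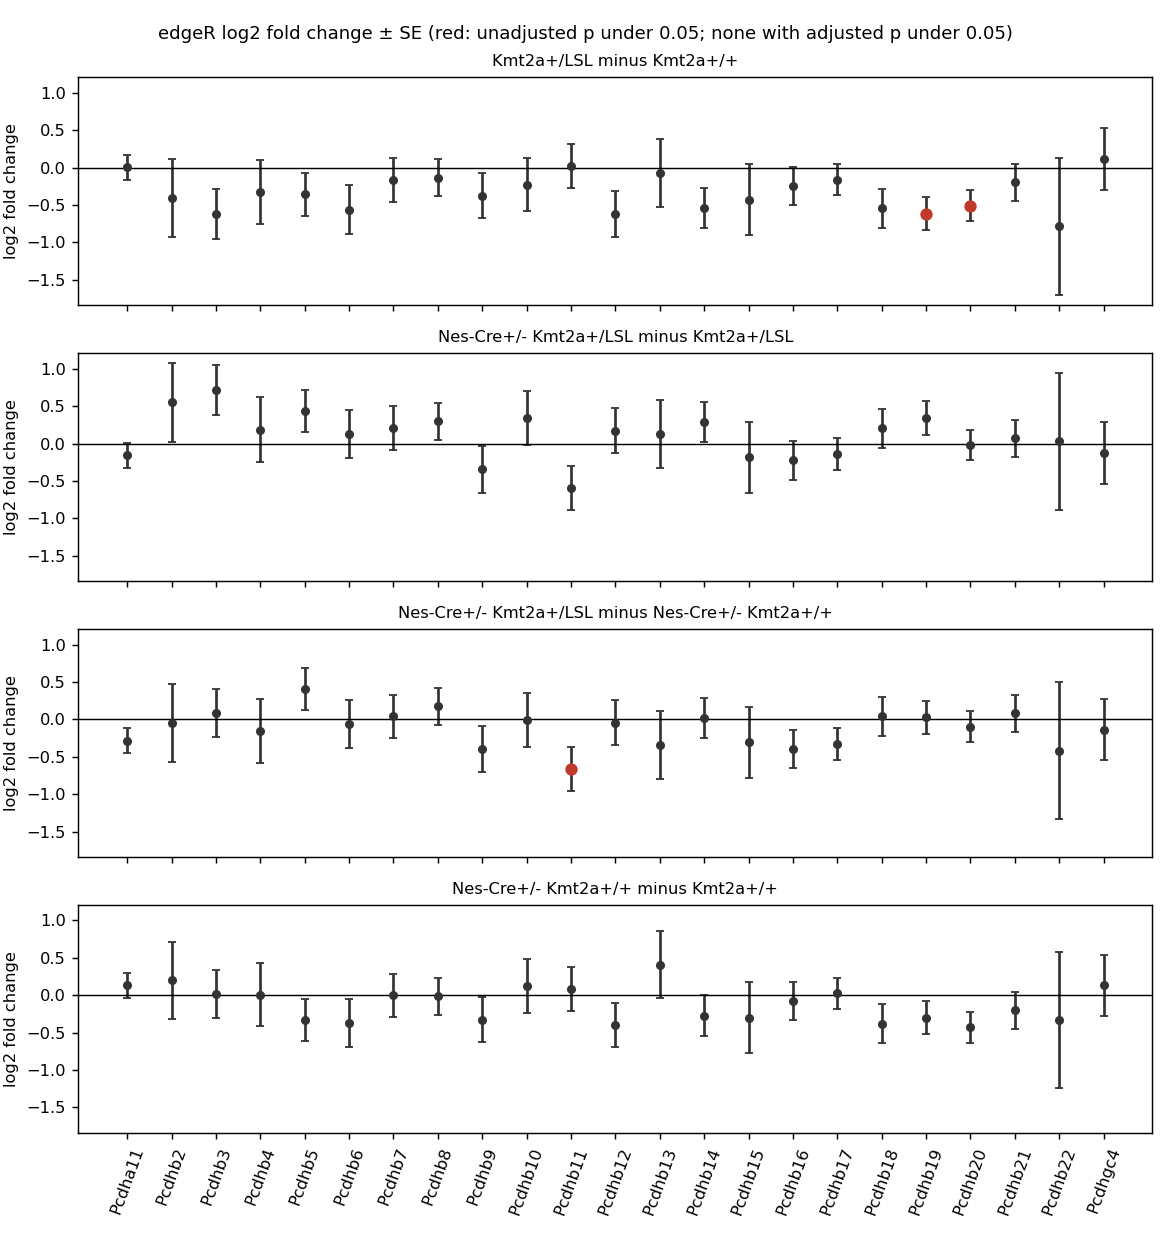
edgeR log2 fold change ± SE of each member in 4 comparisons, each panel titled by the genotype minus its reference, with members in their order along the chromosome and an unadjusted p under 0.05 in red. In the first panel 20 of 21 beta genes lie below 0, and no member had an adjusted p under 0.05 in any panel.

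Nes-Cre+/- Kmt2a+/LSL was compared with Kmt2a+/LSL, to ask what follows when the stopped allele is restored. This comparison shares the Kmt2a+/LSL libraries with the previous one, so the values of both are only set side by side. The log2 fold change was above 0 for 15 of 21 beta genes, against 50.4% of all genes, with a median of 0.17 over the beta genes and 0.0017 over all genes. No member was called (0% of all genes, 275 at an unadjusted p under 0.05, 7 called by DESeq2 and 2 by limma-voom). When single libraries were left out, between 11 and 18 beta genes lay above 0. The median was 0.045, with 11 genes above 0, without Kmt2a+/LSL replicate 1, and 0.36, with 18 genes above 0, without Kmt2a+/LSL replicate 2. In the same comparison 9 of 11 neuronal markers were above 0 (median 0.41), while 6 of 6 astrocyte markers (median -0.40) and 5 of 8 oligodendrocyte-lineage markers (median -0.40) were below 0, and their part in the beta values was not tested. Pcdhb3 had the smallest p. Its levels were 1.05, 1.67 and 1.85 CPM in Kmt2a+/LSL and 2.34, 2.47 and 2.69 CPM in Nes-Cre+/- Kmt2a+/LSL. The libraries did not overlap (3.54% of all genes), and the log2 fold change was 0.72 ± 0.33 (edgeR adjusted p = 1). In Kmt2a+/LSL against Kmt2a+/+ the same gene had -0.62 ± 0.33.

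Pcdhb11 lay on the other side. It had 5.70, 9.14 and 4.78 CPM in Kmt2a+/LSL and 4.98, 4.38 and 3.60 CPM in Nes-Cre+/- Kmt2a+/LSL, for a fitted log2 change of -0.60 ± 0.30 (edgeR adjusted p = 1). The ranges overlapped, and 1 Kmt2a+/LSL library was far above the rest. Without that library, Kmt2a+/LSL replicate 2, the log2 change was -0.27. After the GC offset Pcdhb11 was lower in every library, against 3.75% of all genes, and Pcdhb3, Pcdhb14 and Pcdhb19 were higher in every library, against 4.79%. Pcdhb19 had 29.6, 22.5 and 25.2 CPM in Nes-Cre+/- Kmt2a+/LSL, for a fitted log2 change of 0.34 ± 0.22 against Kmt2a+/LSL (edgeR adjusted p = 1), which was 0.53 without Kmt2a+/LSL replicate 2. Pcdhb20, in contrast, stayed near its Kmt2a+/LSL level, at 17.9, 15.7 and 14.9 CPM and a log2 fold change of -0.02 ± 0.20.

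Next, Nes-Cre+/- Kmt2a+/LSL was set against Nes-Cre+/- Kmt2a+/+, as both carry the recombinase. Here 13 of 21 beta genes were below 0, against 48.9% of all genes, with a median of -0.05. Between 10 and 14 were below 0 when single libraries were left out, and without Nes-Cre+/- Kmt2a+/+ replicate 2 it was 10, with 11 above 0 and a median of 0.0037. The median was -0.11 without Nes-Cre+/- Kmt2a+/+ replicate 3 and -0.09 with a replicate block, the replicate number as a term of the fit. With the GC offset 16 were below 0, and with the GC offset and block the median was -0.11. Here 6 of 11 neuronal markers were above 0 (median 0.07), and 5 of 6 astrocyte (median -0.34) and 6 of 8 oligodendrocyte-lineage markers (median -0.18) were below 0. No member was called (0% of all genes, 190 at an unadjusted p under 0.05, 3 called by DESeq2 and 0 by limma-voom). Pcdhb11 was the only member at an unadjusted p under 0.05 with a lower level, against 0.492% of all genes. It had 6.38, 7.91 and 6.20 CPM in Nes-Cre+/- Kmt2a+/+, above all 3 Nes-Cre+/- Kmt2a+/LSL libraries, and a log2 fold change of -0.66 ± 0.30 (edgeR adjusted p = 1). It lay between -0.77 and -0.54 when single libraries were left out.

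Pcdhb17 and the Pcdha11 row were also lower in every Nes-Cre+/- Kmt2a+/LSL library (3.58% of all genes). Pcdha11 had 28.5, 33.6 and 32.1 CPM in Nes-Cre+/- Kmt2a+/+ and 25.3, 24.4 and 27.7 CPM in Nes-Cre+/- Kmt2a+/LSL, for a fitted log2 change of -0.28 ± 0.17 (edgeR adjusted p = 1). Pcdhb17 had 12.0, 12.8 and 13.1 CPM and then 10.6, 9.81 and 9.85 CPM (-0.33 ± 0.21, edgeR adjusted p = 1). Pcdhb5 was the member with every library higher (3.1% of all genes), at 4.11, 5.26 and 5.24 CPM in Nes-Cre+/- Kmt2a+/+ and 6.37, 6.71 and 6.29 CPM in Nes-Cre+/- Kmt2a+/LSL (0.41 ± 0.28, edgeR adjusted p = 1). After the GC offset Pcdhb11, Pcdhb16 and Pcdhb17 were the beta genes lower in every library, against 3.42% of all genes, and Pcdhb5 the one higher, against 4.46%.

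The nestin-Cre transgene itself was examined by comparing Nes-Cre+/- Kmt2a+/+ with Kmt2a+/+, which both have intact Kmt2a alleles. Here too 13 of 21 beta genes were below 0, against 47.9% of all genes, with a median of -0.20 against 0.01 over all genes. No member was called (0% of all genes, 239 at an unadjusted p under 0.05, 3 called by DESeq2 and 0 by limma-voom). The 3 smallest p-values belonged to the same abundant neighbours, Pcdhb20 (-0.43 ± 0.20, edgeR adjusted p = 1), Pcdhb18 (-0.38 ± 0.26) and Pcdhb19 (-0.30 ± 0.22). Pcdhb20 had 14.6, 20.2 and 17.1 CPM in Nes-Cre+/- Kmt2a+/+. All of these differences use the same 3 wild-type libraries as the comparison of Kmt2a+/LSL with Kmt2a+/+. Between 11 and 19 beta genes were below 0 when single libraries were left out. It was 19, with a median of -0.16, without Kmt2a+/+ replicate 1, and 11 without Kmt2a+/+ replicate 2 (median -0.05) or Nes-Cre+/- Kmt2a+/+ replicate 1 (median -0.12). The log2 fold change of Pcdhb18 was -0.06 without Kmt2a+/+ replicate 1 and -0.60 without Kmt2a+/+ replicate 3, and that of Pcdhb19 was -0.16 and -0.47. Pcdhb6 and Pcdhb12 were lower in every Nes-Cre+/- Kmt2a+/+ library (1.53% of all genes). After the GC offset this held for Pcdhb12, Pcdhb18 and Pcdhb20 and no longer for Pcdhb6, against 3.83% of all genes.

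Whether the effect of the LSL allele differs with and without nestin-Cre was tested as an interaction. No member passed an adjusted p under 0.05, and neither did any gene (0%, 295 at an unadjusted p under 0.05, 10 called by DESeq2 and 0 by limma-voom). The interaction was above 0 for 16 of 21 beta genes, against 49.8% of all genes, with a median of 0.31. Its smallest p-values were for Pcdhb19 (0.64 ± 0.32, edgeR adjusted p = 1.00), Pcdhb5 (0.76 ± 0.40) and Pcdhb11 (-0.68 ± 0.42). The interaction holds the LSL effect without Cre, so it carries the same wild-type libraries as the first comparison. When single libraries were left out, the number of beta genes above 0 ran from 12 to 20. The median was 0.12 without Kmt2a+/LSL replicate 1 and 0.52 without Kmt2a+/LSL replicate 2, and without the latter Pcdhb11 was at -0.34. For the same interaction 9 of 11 neuronal markers were above 0 (median 0.23), while 5 of 6 astrocyte markers (median -0.39) and 7 of 8 oligodendrocyte-lineage markers (median -0.32) were below 0, and their part in the beta values was not tested.

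The gamma row, Pcdhgc4, showed how far 1 library can move a gene. Pcdhgc4 is a gamma-cluster protocadherin of the C type, and the row of that name, which may hold reads of other gamma genes, was the most abundant member. It had 727, 3108 and 3059 CPM in Kmt2a+/+ and 2268, 2652 and 2571 CPM in Kmt2a+/LSL. With nestin-Cre it had 2461, 2490 and 2605 CPM in the Nes-Cre+/- Kmt2a+/+ libraries, against 1742, 2495 and 2640 CPM with the LSL allele (Nes-Cre+/- Kmt2a+/LSL). The first wild-type library and the first Nes-Cre+/- Kmt2a+/LSL library were low, and the other 10 lay between 2268 and 3108 CPM. With all libraries, Kmt2a+/LSL differed from Kmt2a+/+ by a log2 fold change of 0.12 ± 0.41 (edgeR adjusted p = 1). Without Kmt2a+/+ replicate 1 it turned to -0.30 ± 0.17 (edgeR adjusted p = 0.578), and with limma-voom and sample weights it was -0.26. After the GC offset the low library read 1397 CPM against 2789 and 2510 in the other wild-type libraries, a log2 ratio of -0.92 where it had been -2.09. Pcdhgc4 stood at 3.86 times the beta sum in Kmt2a+/+ replicate 1 and at up to 21.5 times in the others, in CPM not divided by length.

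**Figure D4:**
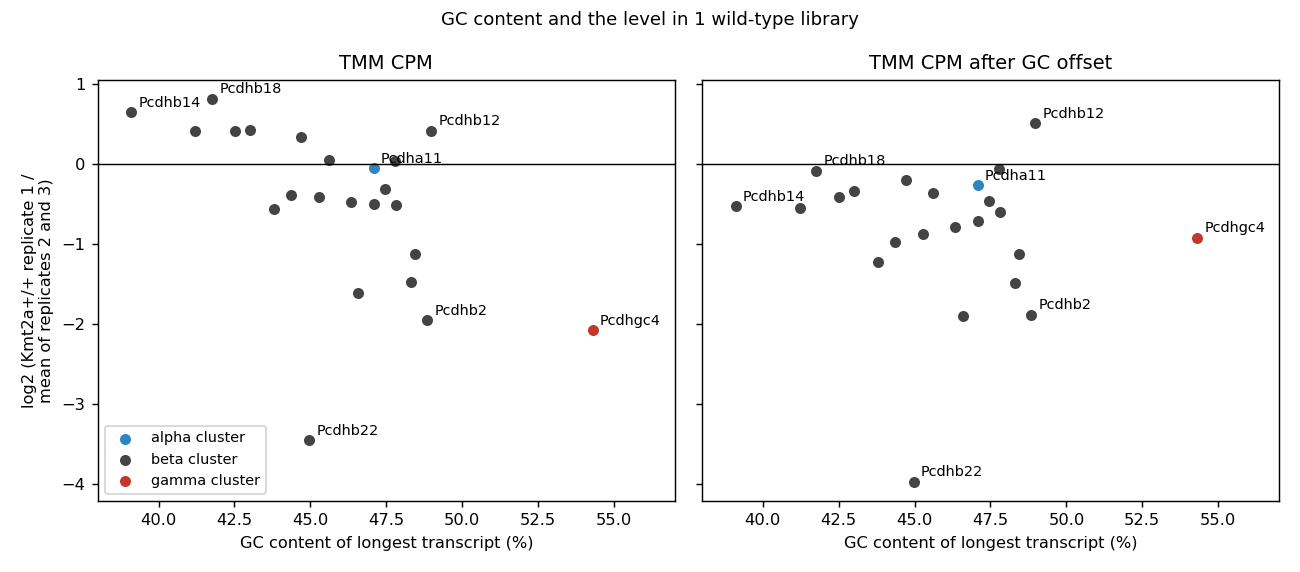
Log2 ratio of Kmt2a+/+ replicate 1 to the mean of replicates 2 and 3 for each member against the GC content of its longest transcript, from TMM CPM (left) and after the GC offset (right). On the left, Pcdhgc4 with 54.3% GC lies at -2.09 and Pcdhb14 with 39.1% at 0.64, and on the right 20 of the 21 beta genes lie below 0.

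The same library did not stand alike across the beta cluster. In TMM CPM, Kmt2a+/+ replicate 1 was above the mean of the other wild-type libraries for 9 beta genes and below it for 12. Those above included the AT-rich Pcdhb14 (0.64 on the log2 scale, 39.1% GC), Pcdhb18 (0.81, 41.8%) and Pcdhb19 (0.41, 41.2%), and those below included Pcdhb4 (-1.62, 46.6%), Pcdhb10 (-1.13, 48.4%) and Pcdhb15 (-1.48, 48.3%). Others went against base composition. The GC-richest, Pcdhb12, was above (0.41, 49.0%), while Pcdhb22 (-3.46), Pcdhb11 (-0.56, 43.8%) and Pcdhb17 (-0.39, 44.4%), all 3 under the median GC content of the cluster, were below. Over the 21 genes Pearson's r of this log2 ratio and GC content was -0.46 and Spearman's rho -0.54, as a description of 1 library over genes that share sequence. With the GC offset r was -0.12, and replicate 1 was then below the other wild-type libraries for 20 of the 21 genes.

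Pcdhb22, the last gene of the beta cluster, varied most. It had 0.71, 6.80 and 8.89 CPM in Kmt2a+/+ and 0.30, 3.78 and 5.52 CPM in Kmt2a+/LSL. With nestin-Cre it had 4.76, 4.36 and 3.97 CPM in the Nes-Cre+/- Kmt2a+/+ libraries, against 1.44, 5.69 and 2.60 CPM with the LSL allele (Nes-Cre+/- Kmt2a+/LSL). The lowest library, Kmt2a+/LSL replicate 1, held 8 counts, and the highest, Kmt2a+/+ replicate 3, held 259, a ratio of 29.7 in CPM. Of the 5257 genes in the range of mean counts of the beta genes, 6.26% had a ratio as large or a library at 0. In 3 genotypes the library numbered 1 was the lowest, whereas in Nes-Cre+/- Kmt2a+/+ it was the highest. The GC offset left the pattern in place, with 0.56 and 0.29 CPM in the first library of Kmt2a+/+ and of Kmt2a+/LSL. No comparison called it, and its log2 fold change was -0.78 ± 0.92 in Kmt2a+/LSL against Kmt2a+/+ (edgeR adjusted p = 1). Pcdhb22 begins inside the annotated span of Pcdhb21, so reads from that overlap can be counted for either gene. Pcdhb21 itself ranged only from 5.73 to 10.7 CPM.

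Pcdhb2 was the next most variable beta gene with at least 50 counts on average, from 0.773 CPM in Kmt2a+/+ replicate 1 to 3.34 CPM in Kmt2a+/+ replicate 2. At the other end, Pcdhb17 had the smallest ratio of highest to lowest library in the beta cluster (1.53, from 9.52 to 14.6 CPM), and the Pcdha11 row ranged from 23.9 to 33.6 CPM over all 12 libraries. The median coefficient of variation of the beta genes was 24.4% for Kmt2a+/+, 23.3% for Kmt2a+/LSL, 13.3% for Nes-Cre+/- Kmt2a+/+ and 14.0% for Nes-Cre+/- Kmt2a+/LSL. For the 5257 genes of like counts it was, in the same order, 44.9%, 15.7%, 13.4% and 20.9%. The median of the beta genes was below that of like genes in wild type and above it in Kmt2a+/LSL, and these medians were not tested against each other.

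**Figure D5:**
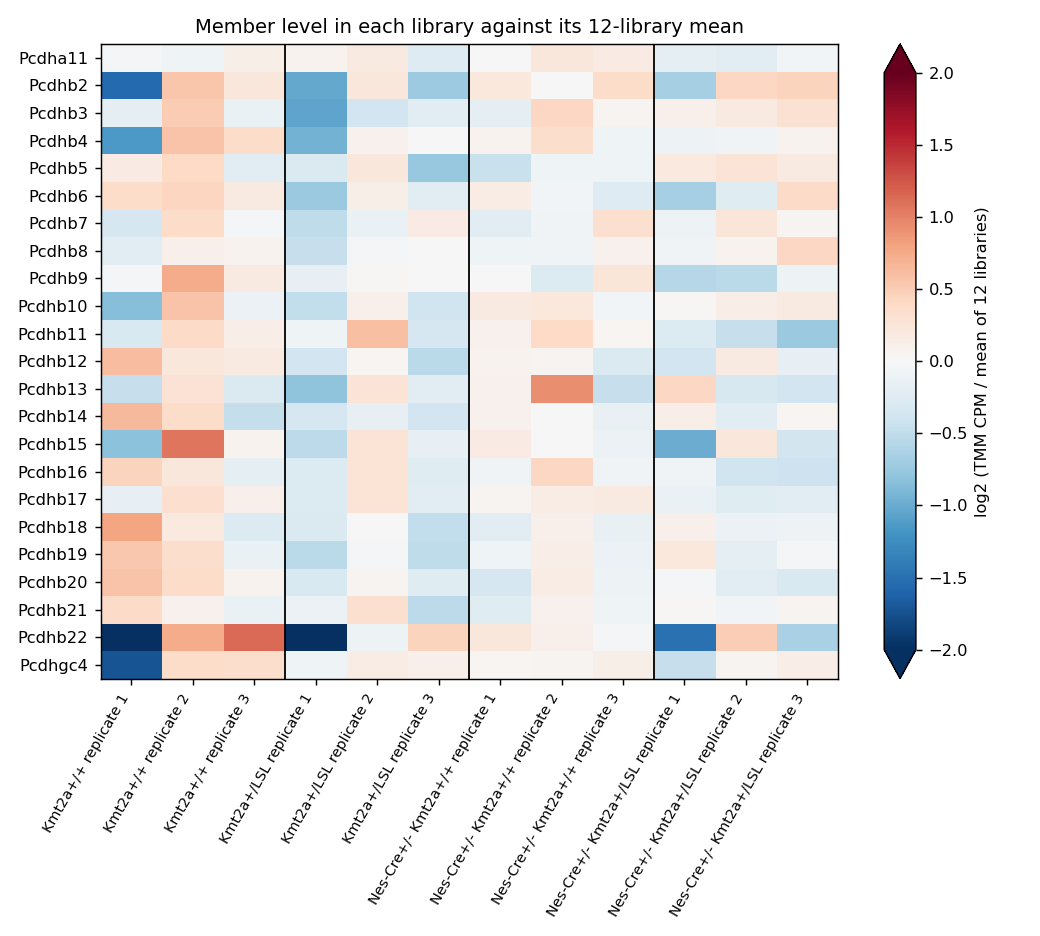
Log2 ratio of each member's TMM CPM in a library to its mean over 12 libraries, with members as rows in their order along the chromosome and libraries as columns, where blue is below and red above the mean. Kmt2a+/LSL replicate 1 is blue for 21 of 21 beta genes, and the first columns of 3 genotypes are darkest at Pcdhb22.

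Genes that set up or silence clustered protocadherin promoters were measured in the same libraries. Of 33 listed names 32 were fitted, and the other, Znf143, is another name of the fitted gene Zfp143. The fitted genes included Ctcf, the cohesin subunits Rad21, Smc1a and Smc3, the silencers Smchd1 and Setdb1, and the DNA methyltransferases. In Kmt2a+/LSL against Kmt2a+/+, 17 were below 0 and 15 above, with a median of -0.0047, and none had an unadjusted p under 0.05. Mau2, a cohesin loader, had the smallest p there (0.37 ± 0.24). Its wild-type level was 27.8, 59.3 and 48.8 CPM, with the low value again in replicate 1, and without that library the log2 fold change was 0.12. Cbx1, a heterochromatin protein, had the smallest p in Nes-Cre+/- Kmt2a+/LSL against Kmt2a+/LSL (0.14 ± 0.17). In Nes-Cre+/- Kmt2a+/LSL against Nes-Cre+/- Kmt2a+/+, 24 genes of the list were above 0 and 8 below, with a median of 0.045. Over all genes 48.9% were below 0 there. Dnmt3b, which places new DNA methylation at these promoters in early embryos, had 2.14, 2.43 and 3.50 CPM in Kmt2a+/+ and 5.04, 4.28 and 3.85 CPM in Nes-Cre+/- Kmt2a+/+. Its libraries did not overlap, and the log2 fold change was 0.70 ± 0.28 (edgeR adjusted p = 1). In this comparison 2 of the 32 genes were higher in every library, against 2.82% of all genes. Dnmt3b was the 1 gene of the list at an unadjusted p under 0.05 in any comparison, against 0.685% of all genes with a higher level in this one.

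All 26 listed genes of partners and signalling were fitted, and none had an unadjusted p under 0.05 in any comparison. For Kmt2a+/LSL against Kmt2a+/+ their median log2 fold change was -0.05, with 14 below 0. Among the genes with the smallest p in a comparison were Prkca, a protein kinase C (-0.33 ± 0.22 in Kmt2a+/LSL against Kmt2a+/+, and -0.12 without Kmt2a+/+ replicate 1), Wasf1, an actin regulator (0.15 ± 0.17 in Nes-Cre+/- Kmt2a+/LSL against Kmt2a+/LSL), and Marcks, a substrate of protein kinase C (0.33 ± 0.19 in Nes-Cre+/- Kmt2a+/+ against Kmt2a+/+).

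Of the listed non-clustered protocadherins and related large cadherins, 20 were fitted, and Pcdh12, Cdhr5, Fat2, Dchs2 and Pcdh24 were not, the last being an older name of the fitted gene Cdhr2. In Kmt2a+/LSL against Kmt2a+/+ 14 of the 20 were below 0, against 49.8% of all genes, with a median of -0.11. Fat4, a giant cadherin of planar polarity, had 116, 127 and 125 CPM in Kmt2a+/+ and 89.6, 93.8 and 103 CPM in Kmt2a+/LSL. The libraries did not overlap, as for 1.76% of all genes in this direction (-0.36 ± 0.15, edgeR adjusted p = 1). In Nes-Cre+/- Kmt2a+/LSL it had 106, 120 and 142 CPM (0.36 ± 0.15 against Kmt2a+/LSL, edgeR adjusted p = 1), and these pairs share the Kmt2a+/LSL libraries. The value of Fat1 rested on single libraries, at 278 CPM in Kmt2a+/+ replicate 1, 81.1 in Nes-Cre+/- Kmt2a+/LSL replicate 1 and 10.1 in Kmt2a+/+ replicate 2, against at most 0.862 CPM in the other 9. Pcdh15 had 1.90, 2.46 and 1.51 CPM in Kmt2a+/+ and 0.894, 0.171 and 0.795 CPM in Nes-Cre+/- Kmt2a+/+, without overlap, against 1.53% of all genes (-1.65 ± 0.59, edgeR adjusted p = 1). Celsr3 had 5.53, 5.77 and 4.05 CPM in Nes-Cre+/- Kmt2a+/+ and 1.94, 2.06 and 2.46 CPM in Nes-Cre+/- Kmt2a+/LSL (-1.25 ± 0.38, edgeR adjusted p = 1).

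Genes that neighbour the clusters on the chromosome were listed as well. Of 18 listed genes 16 were fitted, and in Kmt2a+/LSL against Kmt2a+/+ 6 were below 0 and 10 above, with a median of 0.11, where the beta genes had -0.37. None had an unadjusted p under 0.05 in any comparison. Ik had the smallest p (-0.44 ± 0.28), with 247 CPM in Kmt2a+/+ replicate 1 and 97.8 to 125 CPM in the other 11 libraries. Without that library its log2 fold change was 0.06. Ndufa2, a subunit of respiratory complex I, had the smallest p in Nes-Cre+/- Kmt2a+/LSL against Kmt2a+/LSL (0.38 ± 0.28), and Slc25a2, at most 0.199 CPM in any library, had it in Nes-Cre+/- Kmt2a+/LSL against Nes-Cre+/- Kmt2a+/+.

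Markers of cell identity were read beside the beta genes. In Kmt2a+/LSL against Kmt2a+/+, 7 of 11 progenitor markers and 8 of 11 neuronal markers were below 0, with medians of -0.15 and -0.16, and 1 of 8 oligodendrocyte-lineage markers was below 0, with a median of 0.16. The medians were -0.005 for the 6 astrocyte markers, -0.36 for the 5 microglial, -0.03 for the 5 endothelial and mural, -0.17 for the 5 fibroblast and 0.24 for the 3 ependymal markers that were fitted. The last 4 of these lists summed to at most 34.8 CPM in any library. The neuronal sum was 1024 to 1924 CPM in Kmt2a+/+ and 1291 to 1542 CPM in Kmt2a+/LSL, and the oligodendrocyte-lineage sum 1199 to 5560 and 3665 to 4482 CPM. In each case the Kmt2a+/LSL range lay inside the wild-type range, whose ends included Kmt2a+/+ replicate 1. None of the 54 fitted markers had an unadjusted p under 0.05 in this comparison, and the part of cell composition in the beta values was not tested.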

How the data were processed

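Poly(A) RNA of 12 mNPC libraries was measured. The authors quantified reads with kallisto 0.48.0 against an mm10 transcriptome and deposited estimated counts per gene as whole numbers, which were used as deposited. Identifiers were given symbols from GENCODE vM21, whose gene models may be newer than those of the table. Of the table, genes seen in 2 or more libraries whose counts summed to over 10 were fitted with edgeR 4.0.16 (R 4.3.3), by TMM scaling and its quasi-likelihood test for genotype and Benjamini-Hochberg adjustment over 17076 genes at 0.05. Alternatives used DESeq2 1.42.0 and limma 3.58.1. The GC offset is a loess fit per library (span 0.5). Scripts were tested on simulated data.

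Genes named are the C-type genes, the 4 highest and the lowest per kb in each cluster, the 3 smallest p-values in each comparison, those with the largest ratio of highest to lowest library, any called gene, the smallest p of each list (1 such gene is not reported here), and Kmt2a. Others (Pcdhb6, Pcdhb12 and those named for GC content or overlap) were chosen after their values were seen. The members and lists were chosen with earlier results of these data known.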

Additional observations from a re-analysis of the deposited data

How the results depend on the processing

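No clustered protocadherin was called under any of the 21 other settings. In Kmt2a+/LSL against Kmt2a+/+ the count of beta genes at an unadjusted p under 0.05 was 2. It was 5 with DESeq2's Wald test, 5 with the GC offset, 5 with the GC offset and replicate block, and 7 with limma-voom. It was 0 to 5 when single libraries were left out. Over all genes, those lower at an unadjusted p under 0.05 numbered 192, and 230, 461, 365 and 448 in these settings, in the same order. The beta count and those of direction were added after seeing the data. Pcdha11 in the same comparison, at 0.0069, turned to -0.032 with DESeq2's size factors and -0.032 with its Wald test, -0.0090 with at least 10 counts in every library, -0.0091 with the GC offset, -0.0027 with the block added, -0.0062 with 3 genotypes, and -0.10 to 0.12 when single libraries were left out. Pcdhgc4 turned to -0.26 with limma-voom there and to -0.24 in Nes-Cre+/- Kmt2a+/+ against Kmt2a+/+. When single libraries were left out it ran from -0.30 to 0.40 and from -0.30 to 0.41 in these comparisons, from -0.24 to 0.040 in Nes-Cre+/- Kmt2a+/LSL against Kmt2a+/LSL, and from -0.25 to 0.028 against Nes-Cre+/- Kmt2a+/+. The causes were not tested. The groups share replicate numbers. The correlation of deviations averaged 0.0844 over the 18 same-numbered pairs (-0.0717 to 0.416, above 0 in all 6 pairs numbered 1) and -0.0407 over 36 others. Since not every same-numbered pair exceeded 0.1, the numbers were not taken to pair the libraries. With the replicate block 21 beta genes were below 0 in Kmt2a+/LSL against Kmt2a+/+, with a median of -0.32, the median in Nes-Cre+/- Kmt2a+/+ against Kmt2a+/+ was -0.07 where it had been -0.20, and 0 members were called. Requiring at least 10 counts in every library drops Pcdhb22. With 3 libraries a genotype and a biological coefficient of variation of 0.368, differences in genes of 31.1 to 602 counts may go undetected. Kmt2a itself was not called in the main fit of Kmt2a+/LSL against Kmt2a+/+.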
